A study of Mus musculus with 15 samples.

Results

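H3K4me2 peaks of newborn mouse lens were compared with those of αTN4 cells carrying a Pax6 shRNA (Pax6 KD), and the αTN4 cells with a control shRNA served as the reference for Pax6 KD. All peaks of the 2 lists were taken, 56214 in lens and 65852 in Pax6 KD, which makes 122066 of the 291642 regions in the 9 lists of the series. The control list held 66274 peaks. The lens sample was dissected from CD-1 mice at postnatal day 1 (P1) and carries no shRNA, so it holds epithelium, fibres and any tissue left attached. αTN4 cells derive from mouse lens epithelium and carry the SV40 T-antigen as the transforming gene. The line was infected with lentivirus carrying either shRNA, selected with puromycin for 14 days and kept as pooled populations, so control and Pax6 KD share the line, the T-antigen, the virus and the drug. The study's methods name the second of its Pax6 shRNAs for the ChIP experiments, which the sample labels do not. The antibody and its lot were the same in all 3 libraries. Each condition has 1 library, so no difference between conditions has a replicate check and no p-value is given. Sequencing depth is unknown, and the Wilson intervals below cover counting error only.

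Dimethylation of lysine 4 on histone H3 marks promoters and enhancers that are active or poised, and its pattern at distal sites differs strongly between cell types. Pax6 is a paired and homeodomain transcription factor needed to form the lens, where it acts with Sox2, Maf and Prox1 at crystallin genes and other lens genes. Lens epithelial cells divide at the front of the lens and differentiate into fibre cells, which accumulate crystallins, junction proteins such as Gja3, and the beaded filament proteins Bfsp1 and Bfsp2. A cell line grown in serum can lose part of this program, and the comparison addresses whether lowering Pax6 moved the H3K4me2 pattern of αTN4 toward lens or away from it.

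Distal regions with a lens peak held more CpG on average than those without one, and the windows below are examples. Single windows of the classes overlap, since the lens and control window and the control-only window both hold 3. Each is 200 bp around a summit on the plus strand of mm9, from the distal region that ranked highest in its class, with every CpG in capitals. For the class in all 3 lists the next region is printed, because the first lies in an untranslated region. For lens only the highest ranked region is not reported here and the next lies in a coding exon, so the one after it is printed.
Lens only, intergenic, 78.9 kb from the start of Epb4.1l3, chr17:69425433-69425632, 14 CpG: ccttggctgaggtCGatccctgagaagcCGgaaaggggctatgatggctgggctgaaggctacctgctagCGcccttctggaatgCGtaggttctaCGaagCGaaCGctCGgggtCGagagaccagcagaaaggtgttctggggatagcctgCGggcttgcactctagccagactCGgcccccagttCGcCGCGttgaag
Lens, control and Pax6 KD, intergenic, 62.1 kb from Enkur, chr2:21063798-21063997, 8 CpG: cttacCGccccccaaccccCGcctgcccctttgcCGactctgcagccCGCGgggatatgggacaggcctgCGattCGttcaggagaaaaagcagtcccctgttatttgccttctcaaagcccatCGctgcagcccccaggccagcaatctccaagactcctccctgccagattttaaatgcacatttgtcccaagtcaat
Lens and control but not Pax6 KD, intergenic, 66.4 kb from Haus8, chr8:73729576-73729775, 3 CpG: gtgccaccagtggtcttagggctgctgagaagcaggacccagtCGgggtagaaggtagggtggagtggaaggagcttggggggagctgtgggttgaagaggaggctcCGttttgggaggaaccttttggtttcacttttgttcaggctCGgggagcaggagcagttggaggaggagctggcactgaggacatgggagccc
Control and Pax6 KD, intron of Mb, chr15:76867652-76867851, 0 CpG: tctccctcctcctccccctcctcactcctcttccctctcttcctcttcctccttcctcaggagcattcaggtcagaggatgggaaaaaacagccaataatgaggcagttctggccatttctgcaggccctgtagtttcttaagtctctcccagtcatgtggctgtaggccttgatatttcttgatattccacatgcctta
Control only, intron of Arfip1, chr3:85684435-85684634, 3 CpG: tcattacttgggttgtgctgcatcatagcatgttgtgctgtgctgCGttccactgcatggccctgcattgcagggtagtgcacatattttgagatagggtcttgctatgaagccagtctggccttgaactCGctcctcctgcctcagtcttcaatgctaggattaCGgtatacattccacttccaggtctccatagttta
Pax6 KD only, intron of Fer1l6, chr15:58403375-58403574, 1 CpG: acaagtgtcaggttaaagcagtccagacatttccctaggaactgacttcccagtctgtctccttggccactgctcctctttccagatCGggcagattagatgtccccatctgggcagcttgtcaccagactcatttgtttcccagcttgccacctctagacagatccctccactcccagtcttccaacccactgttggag

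The next windows carry the AP-1 word TGANTCA in capitals, on either strand, and come from the highest ranked distal region with that word in 4 classes. They are shown because this word was more frequent in αTN4 regions without a lens peak.
Lens and Pax6 KD but not control, intergenic, 47.5 kb from Stc1, chr14:69599469-69599668: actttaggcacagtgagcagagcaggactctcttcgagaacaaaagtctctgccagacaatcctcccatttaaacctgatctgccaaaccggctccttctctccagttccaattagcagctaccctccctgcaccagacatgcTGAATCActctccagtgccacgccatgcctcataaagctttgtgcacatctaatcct
Control and Pax6 KD, intron of Sdccag8, chr1:178748787-178748986: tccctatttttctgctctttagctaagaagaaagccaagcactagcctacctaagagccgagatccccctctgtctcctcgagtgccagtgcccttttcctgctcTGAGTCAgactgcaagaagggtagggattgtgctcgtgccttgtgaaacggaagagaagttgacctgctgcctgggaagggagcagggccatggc
Control only, intergenic, 2.3 kb from Cenpm, chr15:82077546-82077745: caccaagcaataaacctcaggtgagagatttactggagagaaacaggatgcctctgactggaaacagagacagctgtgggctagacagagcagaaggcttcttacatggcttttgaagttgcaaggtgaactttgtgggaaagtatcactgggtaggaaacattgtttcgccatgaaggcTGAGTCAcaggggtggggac
Pax6 KD only, intron of Spon1, chr7:121155117-121155316: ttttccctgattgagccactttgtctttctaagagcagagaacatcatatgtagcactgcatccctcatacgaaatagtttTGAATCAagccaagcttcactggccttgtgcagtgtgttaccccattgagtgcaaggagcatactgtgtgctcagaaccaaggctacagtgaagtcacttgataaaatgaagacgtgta

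A lens promoter that αTN4 lacked is illustrated by Mip, the water channel of lens fibres, again with CpG in capitals. The window lies outside the gene, within 2 kb of its start, and holds 2 CpG.
Mip, chr10:127661831-127662030: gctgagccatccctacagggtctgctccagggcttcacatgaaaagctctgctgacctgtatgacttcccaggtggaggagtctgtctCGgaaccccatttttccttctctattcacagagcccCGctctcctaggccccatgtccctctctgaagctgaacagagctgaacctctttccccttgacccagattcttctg

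The lens list held the lens markers chosen, though not those alone. All 7 lens fibre markers (Cryaa, Crybb1, Mip, Gja3, Bfsp1, Bfsp2, Lim2) and all 4 lens epithelium markers (Foxe3, Cdh1, Pax6, Pdgfra) had a promoter peak, meaning a peak within 2 kb of a start of a protein-coding transcript, as had 66.8% of all protein-coding genes. Pax6 KD cells had a peak at 3 of the 7 fibre markers and 2 of the 4 epithelial markers, lacking Foxe3 and Cdh1, and control cells had the same 5. The lens list also held all 4 neural retina markers, 3 of 5 endothelial markers, 3 of 4 fibroblast markers, 2 of 4 pigment cell markers and 2 of 3 liver markers, but 0 of 4 blood and 0 of 3 cornea markers. H3K4me2 also lies on poised promoters, and the part of other tissues in the lens list was not tested. These lists cannot check the fall of Pax6 itself.

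Some peaks stood apart from the rest before any comparison. The first bases of chromosome 9 (mm9 3000068 to 3037451) held 36 regions with a lens and a Pax6 KD peak and none with a control peak, at folds of 1.28 to 2.05 in lens and 1.33 to 2.19 in Pax6 KD. They and 4 others make 40 of the 288 regions shared by lens and Pax6 KD alone, all with a fold below 2.5 in both lists. The nearer and farther counts are given with and without them. Lens shares of gained regions and H3K4me1 overlaps are given without them. Other values of this class include them, and they make 32 of its 71 promoter regions and 8 of its 217 distal ones. Peak names in the control list carry a tag for both replicates while those of the other lists do not, so the control list may rest on pooled reads. Peaks were also wider in control, with a median of 865 bp against 727 bp in Pax6 KD and 709 bp in lens, and control peaks covered 74.3 Mb against 63.6 Mb and 58.9 Mb. The median fold was 6.90 in control, 7.36 in Pax6 KD and 6.58 in lens.

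Promoters were largely common to lens and Pax6 KD cells, and distal peaks largely were not. Of the 21265 promoter peaks in lens, 73.6% overlapped a Pax6 KD peak by at least 1 bp, against 24.8% of the 34949 distal peaks. Seen from the cells, 89.3% of 21796 promoter peaks and 19.5% of 44056 distal peaks of Pax6 KD overlapped a lens peak. Pax6 KD peaks were far closer to control than to lens, since 98.3% of the promoter peaks and 89.9% of the distal peaks of Pax6 KD overlapped a control peak.

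Whether Pax6 KD lay nearer to lens than control did depended on the list taken as the base. Of all lens peaks, 43.3% overlapped a Pax6 KD peak (95% Wilson interval 42.9 to 43.7) and 45.4% a control peak (45.0 to 45.8), which puts Pax6 KD farther. Of all Pax6 KD peaks, 42.6% overlapped a lens peak (42.2 to 43.0), against 41.3% of control peaks (40.9 to 41.6), which puts Pax6 KD nearer. At promoters alone the shares of lens peaks were 73.6% and 75.0%, and at distal sites 24.8% and 27.4%. The shares of αTN4 peaks in lens were 89.3% for Pax6 KD and 88.8% for control at promoters, and 19.5% and 19.4% at distal sites, with overlapping intervals in both cases. In bases, lens and Pax6 KD shared 28.6 Mb, which was 48.5% of the lens bases, 45.0% of those of the cells and 30.5% of their union. Lens and control shared 30.7 Mb, at 52.2%, 41.4% and 30.0%.

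**Figure D1:**
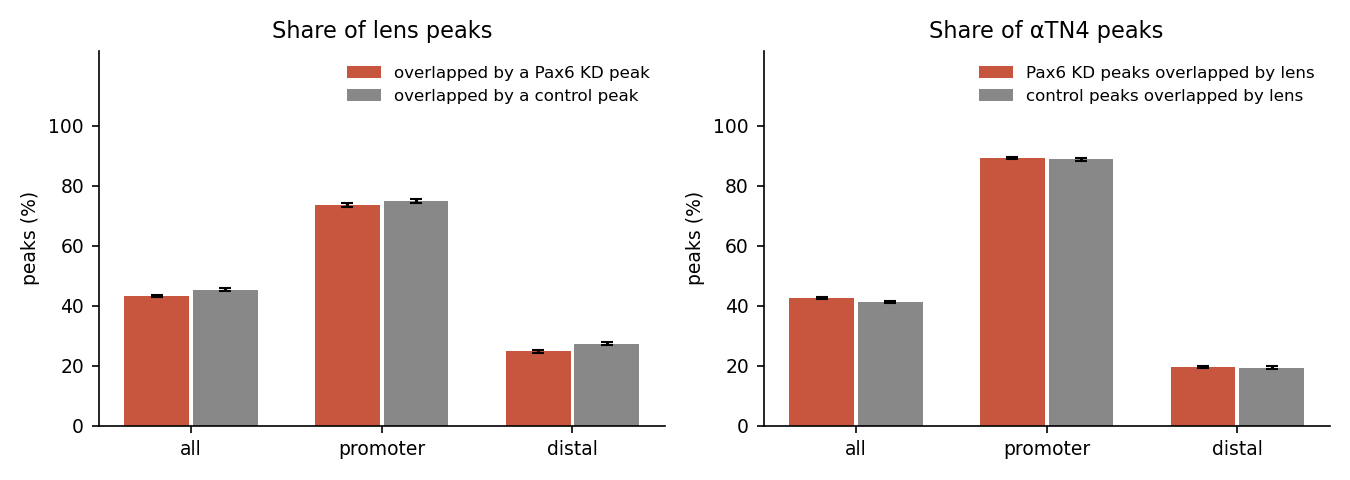
Percent of lens peaks that overlapped an αTN4 peak (left) and percent of αTN4 peaks that overlapped a lens peak (right), for all, promoter and distal peaks. Bars are shares in 1 library each and error bars 95% Wilson intervals, with Pax6 KD at 43.3% against 45.4% for control on the left and 42.6% against 41.3% on the right.

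Peaks of the 3 lists were then merged into 95866 regions, 22887 at promoters and 72979 distal. The largest promoter class had peaks in all 3 lists, with 14791 regions, followed by 5232 with a lens peak only. Distal regions split mainly into 26082 held by control and Pax6 KD without lens, 25102 held by lens only and 7077 held by all. A region counts as nearer to lens when Pax6 KD shares the lens state and control does not, and as farther in the opposite case. There were 10343 nearer regions and 5594 farther ones, or 10254 and 5580 without the regions of low fold. This order also turned with lists cut to the same covered length, to 1910 nearer and 10539 farther.

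**Figure D2:**
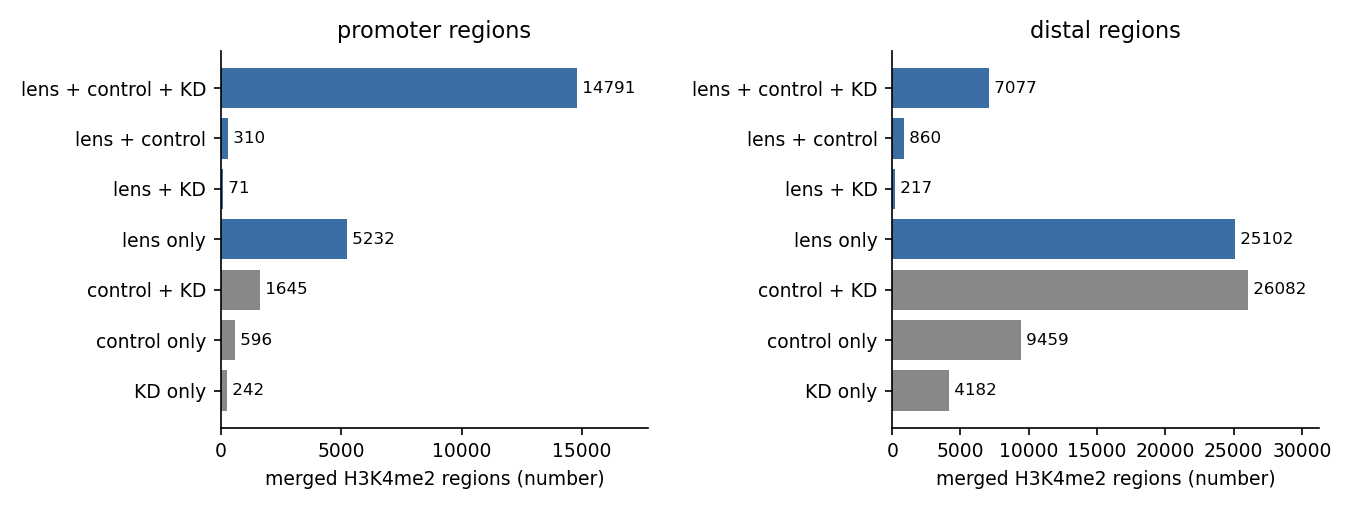
Number of merged H3K4me2 regions in each presence class at promoters (left) and distal sites (right), with lens-holding classes in blue and the others in grey. The class shared by lens and Pax6 KD alone is the smallest on both sides, with 71 and 217 regions, of which 32 and 8 have a fold below 2.5.

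The nearer count came almost wholly from loss outside the lens pattern. Of the 10343 nearer regions, 10055 were control peaks absent from lens that Pax6 KD lacked, and 288 were lens peaks that Pax6 KD had and control did not, or 248 without those of low fold. Of the farther regions, 4424 were peaks of Pax6 KD alone and 1170 were lens peaks held by control and missing in Pax6 KD. Lens regions were thus lost more often than gained between control and Pax6 KD, 1170 against 248. With a fold of at least 5 in every list the counts were 585 lost and 343 gained, and with lists cut to the same covered length they turned to 185 lost and 1349 gained. Among all regions lost in the knockdown, 10.5% were in lens (9.91 to 11.1) when regions of low fold were left out, and among all gained, 5.32% (4.72 to 6.01). At promoters the shares were 34.3% of those lost and 14.0% of those gained, and at distal sites 8.37% and 4.77%.

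Regions that changed were weak in the cells. Percentiles below rank a peak by fold within its own list, from lowest to highest. The median control percentile was 15.1 for regions of control alone and 20.5 for lens regions lost in Pax6 KD, against 80.6 for regions in all lists. In Pax6 KD the median was 12.8 for its own regions and 13.6 for lens regions gained. The lens peaks at those sites were stronger, with a median lens percentile of 48.3 at lost and 38.9 at gained regions. When only changed regions with a −log10 q of at least 10 in the αTN4 list that held them were counted, 108 lens regions were lost and 9 gained, beside 470 and 80 outside lens. The lens share was then 18.7% of those lost (15.7 to 22.1) and 10.1% of those gained (5.41 to 18.1), intervals that overlap.

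Distal control peaks with and without a lens counterpart were found in Pax6 KD at nearly the same rate once their strength was the same. Unweighted, 87.9% of distal control peaks that overlapped a lens peak were found in Pax6 KD, against 74.1% of those that did not. When the second group was weighted to the deciles of fold of the first, its share was 88.5%, and 87.2% with deciles of GC content added. Among the lowest 3 deciles of fold the shares found were 51.0% of 1676 peaks with lens and 51.1% of 16665 without. The 2 groups differed by less than counting error there. In decile 4 fewer peaks with lens were found, 77.2% (74.0 to 80.0) against 81.2% (80.1 to 82.2).

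Peaks that appeared in the knockdown leaned away from lens even at equal fold, though over all peaks the gap was small. In the lowest 3 deciles of Pax6 KD, 86.1% of 1694 distal peaks with a lens counterpart were already in control (84.4 to 87.7), against 76.6% of 16127 without one (75.9 to 77.2). Weighted by deciles of fold over all distal peaks, the shares were 96.7% and 94.7%, and with GC content added 96.7% and 95.6%. At promoters the shares weighted by fold were 99.3% and 98.9%, and 97.3% and 97.4% for control peaks found in Pax6 KD. With GC content added the first pair was 99.3% and 99.1%. Peak width was not weighted, and its part was not tested. Distal regions had a median width of 1430 bp in all lists and 635 bp in lens and Pax6 KD. Without lens it was 927 bp in both αTN4 lists and 274 bp in Pax6 KD alone. From the fifth decile upward at least 93.2% of distal peaks in either group were in the other αTN4 list. A difference in the depth of the 2 libraries or in pooling would also move weak peaks, and its part was not tested.

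**Figure D3:**
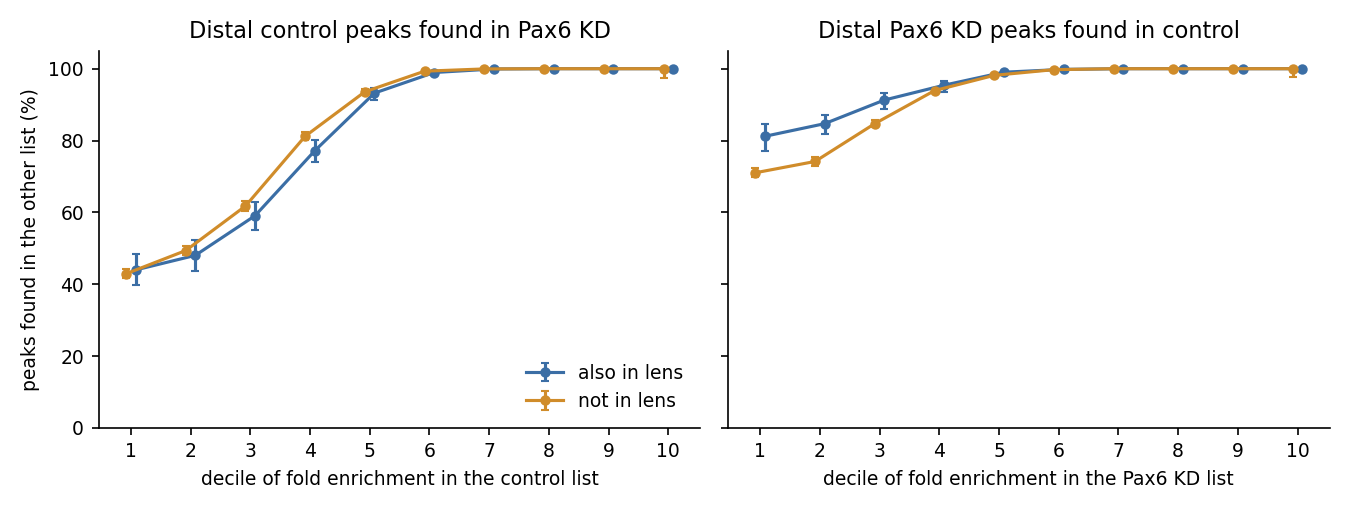
Percent of distal control peaks found in Pax6 KD (left) and of distal Pax6 KD peaks found in control (right) by decile of fold, for peaks with (blue) and without (orange) an overlapping lens peak; error bars are 95% Wilson intervals. The curves run close together on the left except in decile 4, at 77.2% with lens and 81.2% without. On the right the lowest decile reads 81.2% with lens and 71.0% without.

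The order of strength in shared regions was farther from lens in Pax6 KD by a small margin. Over 14791 promoter regions in all 3 lists, Spearman's rho of fold with lens was 0.377 for Pax6 KD and 0.407 for control, and over 7077 distal regions 0.383 and 0.405. These describe regions within single libraries, share the lens values and carry no test. Control and Pax6 KD ranked regions far more alike, at 0.731 and 0.878. Region by region, the Pax6 KD percentile was the closer of the 2 to the lens percentile in 46.2% of promoter and 51.1% of distal regions.

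At the level of genes, 12152 of 22359 protein-coding genes (54.3%) had a promoter peak in both lens and Pax6 KD. Another 2779 (12.4%) had one in lens and not in Pax6 KD, and 609 (2.72%) had one in Pax6 KD and not in lens. Between the αTN4 lists, 347 genes (1.55%) had a peak in control and not in Pax6 KD, and 100 (0.447%) the reverse. Of the 14931 genes marked in lens, 81.4% were marked in Pax6 KD and 82.4% in control. Over all genes 66.8% had a peak in lens and 54.1% a peak in all 3 lists. These percentages over all genes are the background for the lists below. For genes with a peak in all 3 lists, the Pax6 KD percentile was closer to lens than the control percentile in 5516 of 12105 (45.6%).

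Crystallin genes, which encode the bulk proteins of the lens, were marked in part. Among 8 alpha and beta crystallin genes, 7 had a promoter peak in lens and 5 in Pax6 KD, and the same 5 in control. Cryaa, an alpha crystallin chaperone, had a fold of 5.53 in lens, 13.9 in control and 24.6 in Pax6 KD, at percentiles of 41.2, 76.9 and 95.2. It was thus ranked lowest in lens and highest in Pax6 KD. Cryba2 followed the same order, at percentiles of 55.6, 88.4 and 95.1. Cryab had percentiles of 59.8, 90.1 and 87.1. Cryba4 and Crybb1, which neighbour each other and share the αTN4 peak, stood at 31.0 and 34.9 in lens, 48.6 in control and 53.6 in Pax6 KD. Crybb2 and Crybb3 were marked in lens only. Of the 5 shared genes, 1 was closer to lens in Pax6 KD and 4 in control. Of the 8 genes, 25% were in lens and not in Pax6 KD, against 12.4% of all genes.

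Gamma crystallins, expressed in differentiating fibres, had no promoter peak in either αTN4 list. In lens 4 of 8 did, Crygc, Crygd, Cryge and Crygn, with percentiles between 32.5 and 54.1. That is 50% of the list in lens but not in Pax6 KD, against 12.4% of all genes. Gamma crystallin genes are near copies of each other, so reads at them may be split or lost.

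Fibre membrane and cytoskeleton genes split into a lens-only group and a shared group. Mip, Lim2, Bfsp1, Bfsp2, Grifin and Birc7 had a promoter peak in lens only, at folds between 4.21 and 9.87. Gja3, a connexin of fibre gap junctions, was marked in all lists. It read 14.7 in lens, 10.0 in control and 8.33 in Pax6 KD, at percentiles of 70.0, 64.8 and 55.5. Epha2, an ephrin receptor of lens cells, ranked at 95.4 in lens, 88.3 in control and 81.6 in Pax6 KD. Aqp5, a water channel, stood at 51.2 in lens, 99.8 in control and 97.0 in Pax6 KD. Lenep was marked in αTN4 only, at 54.9 in control and 22.6 in Pax6 KD. Of the 14 genes, 6 were in lens and not in Pax6 KD, a share of 42.9% against 12.4% of all genes.

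Most lens transcription factors were marked in all lists. Of 22 that matched the annotation, all had a lens peak and 19 had a peak in both αTN4 lists. The 3 others were Foxe3, Sox11 and Eya1, with lens folds of 12.6, 28.7 and 20.1. The Pax6 promoter itself read 33.2 in lens, 25.1 in control and 20.9 in Pax6 KD, at percentiles of 99.2, 98.7 and 90.3. Pax6 KD was the lowest of the 3 there. Sox2, a partner of Pax6, stood at percentiles of 87.7, 86.4 and 98.2, with control the closer to lens. Prox1, a homeodomain factor of fibre differentiation, stood at percentiles of 79.3, 98.6 and 97.7. Among the 19 shared factors, 11 were closer to lens in Pax6 KD and 8 in control. Around these factors lens had 130 distal regions, of which Pax6 KD held 18.5% and control 20.0%, against 24.2% and 26.3% near all genes. Of the 26 shared with control Pax6 KD lacked 2 (7.69%), against 10.6% near all genes, and it gained 0 lens regions.

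Epithelial genes were marked in lens and for the most part not in either αTN4 list. All 15 had a promoter peak in lens and 5 in Pax6 KD, so 66.7% were in lens and not in Pax6 KD, against 12.4% of all genes. Cdh1, the epithelial cadherin, had a lens fold of 26.1 and Epcam, an epithelial adhesion protein, 13.4, with no αTN4 peak at either. The tight junction genes Ocln, Cldn4 and Cldn7 and the epithelial regulators Grhl2, Esrp1 and Ovol2 were likewise lens only. The 5 with a Pax6 KD peak, Krt8, Tjp1, Itga6, Pdgfra and Gja1, were marked in all lists. Their ranks went both ways. Itga6 stood at percentiles of 90.9 in lens, 99.8 in control and 99.3 in Pax6 KD, and Gja1 at 85.6, 69.3 and 59.4. Cldn3, another tight junction gene, was the 1 member whose state differed between the αTN4 lists, with a lens fold of 6.85, a control fold of 3.57 at a percentile of 8.14, and no peak in Pax6 KD. The 9 other genes without a Pax6 KD peak had none in control either.

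Mesenchymal genes were mostly marked in lens as well. Of 20, 18 had a lens peak, against 66.8% of all genes. Pax6 KD also had a peak at 18, and 16 had both, against 54.3% of all genes. Col3a1 and Postn, matrix genes, were in both αTN4 lists and not in lens, while Tagln and Thy1 were in lens only. Ranks of the shared genes went both ways. S100a4 ranked at 26.0 in lens, 99.8 in control and 99.7 in Pax6 KD, and Tgfbi, a matrix protein, at 82.5, 95.7 and 93.3. Zeb2, a repressor of epithelial genes, stood at 77.3, 99.2 and 99.1. Zeb1 stood at 94.2, 85.5 and 74.0 and Prrx1 at 87.2, 73.9 and 84.1, both highest in lens. Of the 16 shared genes, 13 were closer to lens in Pax6 KD.

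In the FGF pathway, which drives fibre differentiation, all 16 genes had a lens peak and 13 a Pax6 KD peak, with Fgfr4, Fgf1 and Fgf2 in lens only. The receptor gene Fgfr1 had a fold of 19.7 in lens, 7.82 in control and 6.25 in Pax6 KD. Etv5, an ETS factor induced by FGF, read 25.6, 14.8 and 10.4, and Etv1 27.9, 16.9 and 13.3. These 3 were highest in lens and lowest in Pax6 KD by fold and by percentile. Spry2, a feedback inhibitor, read 34.8, 17.6 and 25.3, and the ligand gene Fgf9 23.7, 12.6 and 21.2, both nearer to lens in Pax6 KD. Of the 13 shared genes, 7 were closer to lens in Pax6 KD and 6 in control. Near the 16 genes, Pax6 KD lacked 30.6% of the distal control regions, against 23.7% near all genes, and had 10.4% of its own regions absent from control, against 10.7%. Of the 24 distal regions that lens and control shared there, Pax6 KD lacked 5 (20.8%), against 10.6% near all genes, and it gained 0 lens regions.

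**Figure D4:**
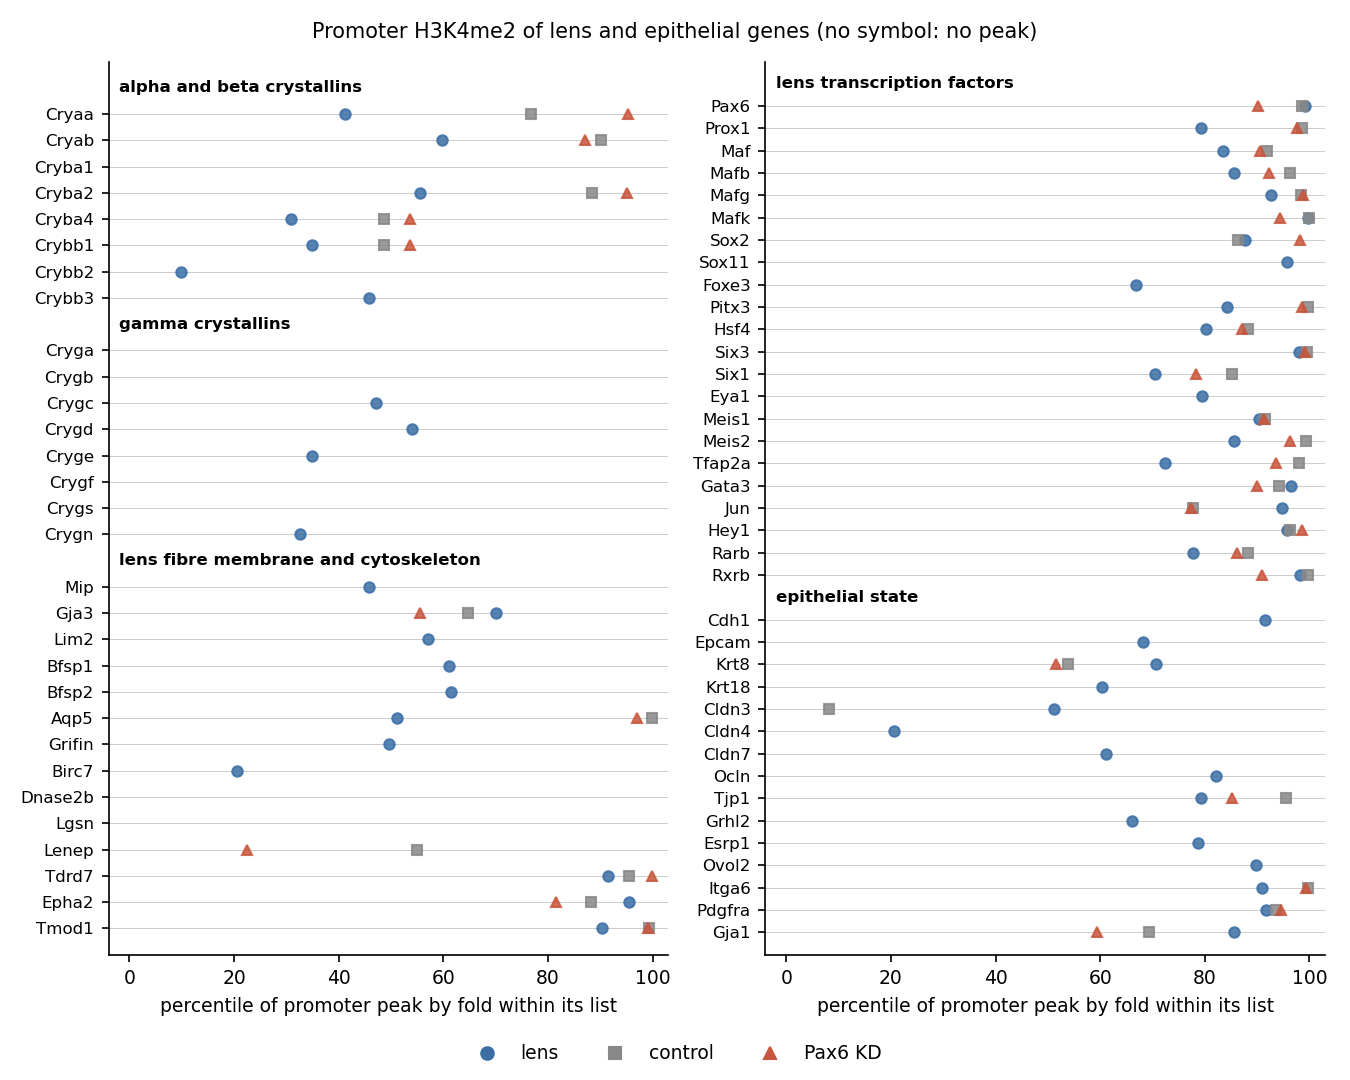
Percentile by fold, within its own list, of the strongest promoter peak of each lens and epithelial gene in lens (circle), control (square) and Pax6 KD (triangle); a missing symbol means no peak. Cdh1, Epcam, Mip, Bfsp1, Bfsp2 and Foxe3 show a lens symbol only, and Cryaa runs from 41.2 in lens to 95.2 in Pax6 KD.

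The genes that the study named as Pax6-bound and responsive to the knockdown were marked in all lists, 10 of 10, against 54.1% of all genes. The study reported higher expression of Csf1, Dhrs3 and Eya4 after Pax6 depletion and lower expression of the others. That list was chosen by the study on these cells and is not independent evidence of a direction. Csf1, a macrophage growth factor, read 25.3 in lens, 11.3 in control and 30.7 in Pax6 KD, at percentiles of 89.9, 69.3 and 99.1. Dhrs3, a retinal reductase, read 24.5, 16.8 and 10.9. Plekha1 stood at percentiles of 72.6, 90.7 and 94.1, and Cap2 at 77.8, 90.1 and 74.6. Of the 10, 5 were closer to lens in Pax6 KD and 5 in control. Near them Pax6 KD gained 2 lens regions, 1 each by Cap2 and Zfp536, and lost 1, by Csf1.

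Neural and retinal genes were marked in lens and largely absent from αTN4. Of 16, 15 had a lens peak and 11 of them (68.8% of the list) had none in Pax6 KD, against 12.4% of all genes. Among the 11 were Rax, Crx and Atoh7, which act in the retina, and Neurod1. Lens percentiles of these 4 ran from 54.7 to 99.4. Of 67 distal lens regions near the list, Pax6 KD held 7.46% and control 8.96%, against 24.2% and 26.3% near all genes. Retinal tissue on the dissected lens and poised marking in lens cells cannot be told apart here.

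Among genes of the cell cycle all 18 were marked in the 3 lists, against 54.1% of all genes. All 12 housekeeping genes and all 12 genes of H3K4 methyltransferase complexes were so as well. Closer to lens in Pax6 KD than in control were 7 of the cell cycle genes, 4 of the housekeeping genes and 9 of the complex genes. Among all genes marked in the 3 lists that share was 45.6%. The cell cycle inhibitor Cdkn1c, expressed where fibres leave the cell cycle, had a lens fold of 12.9 and no αTN4 peak. Kmt2a (Mll1) ranked at 96.1 in lens, 84.4 in control and 87.5 in Pax6 KD, and Setd1a at 98.5, 96.8 and 91.2. Men1, a partner of these enzymes, ranked at 88.5, 98.2 and 81.1.

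The strongest lens regions missing from both αTN4 lists ranked near the top of the lens list. At promoters they lay at Frem2, a basement membrane protein gene, Palm2, Enox1, Ppp1r3g and Kit, a receptor tyrosine kinase, with lens folds of 36.3 to 38.5. Strong distal ones lay near Gm4450, Epb4.1l3, Meis1 and Rbm28, with folds of 34.2 to 36.6. Regions in all 3 lists reached the top of each list at once, for instance at Pick1 with folds of 36.9 in lens, 31.4 in control and 35.4 in Pax6 KD.

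Lens regions that Pax6 KD lacked and control held did not reach the upper percentiles of control. The 5 highest at promoters lay at Hes3, Zxdb, Onecut3, Mllt10 and Zfp362. Hes3, a bHLH repressor of neural progenitors, read 13.4 in lens and 8.85 in control, a control percentile of 60.4. Onecut3, a homeodomain factor, read 12.6 and 7.70. The 5 highest distal ones lay near Haus8, Naprt1, Utp14a, Chrna1 and Gata2. The region 3.36 kb from Gata2, a zinc finger factor, read 20.3 in lens and 7.01 in control.

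Lens regions that only Pax6 KD gained were fewer and lay at Tmem145, Kitl, Dach1, Kdm2b and Hoxb4 at promoters. The Hoxb4 region lay 1.93 kb from the start, and control had another promoter peak of that gene, at a fold of 15.3. Tmem145 had the strongest lens peak, 23.7, beside 6.60 in Pax6 KD. Dach1, a factor of the eye determination network, read 11.4 and 6.55, and Kitl, the ligand of Kit, 5.79 and 6.60 at a region beside its main promoter peak. The distal ones lay near Stc1, Gm9915, Ergic1, 9130404H23Rik and Atp6v0e. The region by Stc1, a secreted glycoprotein gene, read 7.37 in lens and 6.94 in Pax6 KD.

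Peaks of a single αTN4 list reached only the middle of their list. For Pax6 KD alone the highest lay at Gm20464, Rab8b, Supt6h, Omd and Sf1 at promoters, with folds of 6.25 to 7.99, and near Fer1l6, Csf2ra, Tlr5, Tpm2 and Cdh12 elsewhere, with folds of 7.93 to 9.08. For control alone they lay at Rrbp1, Notch1, Msi1, Morf4l2 and Polr1b, with folds of 7.24 to 8.05, and near Arfip1, Stx16, Gm8730, Vmn2r90 and G930045G22Rik, with 7.93 to 9.22. Notch1 encodes a signalling receptor and Msi1 an RNA-binding protein of progenitor cells.

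Distal changes were also counted by nearest gene. Of 12700 genes with a distal region within 100 kb of the nearest start, 3837 had more nearer than farther regions and 1663 the opposite. The most nearer regions in excess were found by Adamts16, Col5a1 and Ltbp1 (9 each), Apbb2, Cebpb, Glrp1 and Smad3 (8 each), and Armc2, Btbd11 and Cyp1b1 (7 each). Col5a1 encodes a fibrillar collagen, Ltbp1 binds latent TGFβ and Smad3 transmits its signal. At all 10 genes these were control regions absent from lens, with control folds between 2.55 and 6.10, and no lens region was gained. Near Col5a1, Pax6 KD lacked 9 of 27 distal control regions, a share of 33.3% against 23.7% of the distal control regions near all genes. Col5a1 was picked by the count of these same regions, so the contrast is no independent evidence of gathering.

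The most farther regions in excess were found by Pcdh9 and Slitrk5 (10 each) and Lphn2 (8), followed by Bdnf, Dcn, Dkk2, Hs3st1, Pcdh20 and Zbp1 (4 each) and 5430407P10Rik (3). Pcdh9 and Pcdh20 are protocadherins, Slitrk5 is a neuronal membrane protein and Lphn2 an adhesion receptor. The 10 regions of Pcdh9 lay within chr14:94226904-94299038 and the 10 of Slitrk5 within chr14:112083188-112110744, all of them of Pax6 KD alone, at folds of 3.44 to 6.60. Over the genome 10.7% of distal Pax6 KD regions near genes were absent from control. Between 90 and 95 Mb of chromosome 14 this held for 25 of 46 αTN4 regions and between 110 and 115 Mb for 14 of 28, against a median of 7.41% over 514 bins of 5 Mb. The mean GC content of the Pcdh9 and Slitrk5 windows was 34.0% and 35.3%, low beside 42.8% for distal regions of Pax6 KD alone. Zbp1, a nucleic acid sensor gene, differed in kind, since its 4 regions were lens regions lost in Pax6 KD, with lens folds of 6.85 to 7.47 and control folds of 3.46 to 4.03.

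Sequence separated the classes in ways that presence alone did not use. Distal regions with a lens peak had 3.67 to 4.35 CpG per 200 bp on average, and distal αTN4 regions without one had 1.74 to 2.11. The αTN4 regions held the AP-1 word TGANTCA, bound by Fos and Jun proteins, more often. It was found in 15.5% of windows of Pax6 KD alone (14.4 to 16.6), 14.6% of control alone (13.9 to 15.4) and 11.0% of both, against 4.43% of lens only (4.18 to 4.69) and 5.81% of all 3 lists, with 8.90% over all distal regions. Among windows with 45 to 50% GC the shares were 16.5%, 15.6%, 11.4%, 5.11% and 6.74% in the same order. Lens windows lost and gained held the word in 6.74% and 8.76%. Within 45 to 50% GC this rose to 10.6% (7.12 to 15.6) and 11.9% (5.87 to 22.5), near the 11.4% of both αTN4 lists. The word thus did not separate every class with a lens peak from those without. The E-box CAGCTG was in 16.1% of lens-only windows and 20.7% of lens windows lost in Pax6 KD, but in 13.1% of those in all lists and 12.0% of lens windows gained, so it did not follow the lens peak as such. It was in 12.6% of control alone, 11.1% of both αTN4 lists, 9.04% of Pax6 KD alone and 13.2% of all distal regions. Among windows with 45 to 50% GC the shares were 14.3% of lens only, 17.9% of lens lost, 11.2% of all lists, 12.2% of control alone and 11.1% of Pax6 KD alone. The Runx word AACCACA was in 6.64% of control alone and 3.44% of lens only, with 4.76% overall.

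The other words differed less between the larger classes, in percentage points, than the AP-1 word and the E-box did. The word CTGTCA, bound by Meis proteins, was in 16.0% of all distal windows. Gata factors bind AGATAA, which was in 10.7%, and the C/EBP word TTGCNNAA was in 8.62%. A word of the Maf site, TGCTGAC, was in 4.02% of these windows. The Tead word was ACATTCC, with matches in 3.73% of the same windows. The Sox word was ACAATGG, with a share of 3.33%. The word of Ets factors, CCGGAAG, was the rarest of these words, with 1.12% of the windows. Of these, Gata ranged furthest among the larger classes, from 9.36% of lens only to 14.1% of Pax6 KD alone. A word is a match of letters and not a bound site. GC content moved with the knockdown classes, at 47.1% in distal control alone and 42.8% in Pax6 KD alone, and at 51.9% in lens regions lost and 47.0% in those gained. Whether base composition of the libraries had a part in the lost and gained lens regions was not tested.

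**Figure D5:**
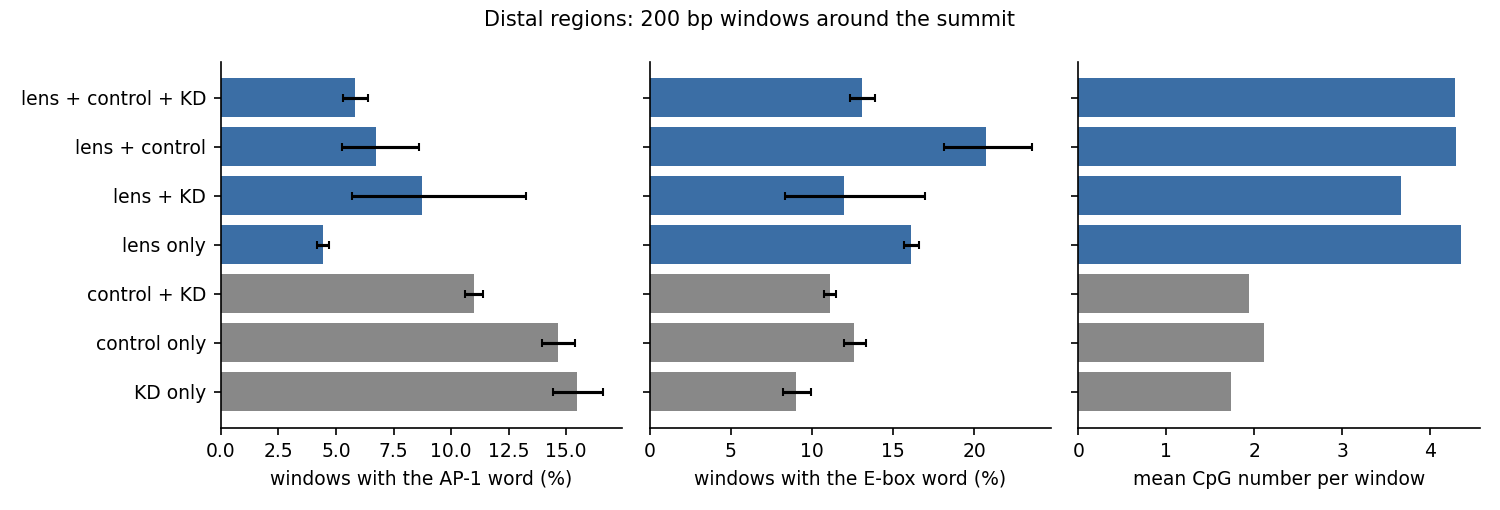
Distal regions by class: percent of 200 bp windows with the AP-1 word (left) and the E-box word (middle), with 95% Wilson intervals, and mean number of CpG per window (right). Lens-holding classes are blue and the others grey, with AP-1 at 15.5% in Pax6 KD alone and 4.43% in lens only.

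Other readouts from αTN4 placed the classes by their state in the cells. RNA polymerase II (Pol2) and H3K4me3 of control cells overlapped 80.6% and 80.7% of promoter regions in all 3 lists, and 1.53% and 1.57% of lens-only promoters. Lens-only promoters were also rich in CpG, at 9.97 per window against 4.93 in all lists. H3K4me1 islands of Pax6 KD overlapped 49.0% of distal regions held by both αTN4 lists, 40.2% of those in all lists, 31.3% of lens regions lost, 21.1% of lens regions gained without those of low fold, and 9.40% of lens-only regions. Islands of control cells gave 78.0%, 63.0%, 50.8%, 38.3% and 14.2%. Islands of control thus covered more of every class than islands of Pax6 KD, lens regions gained in Pax6 KD included.

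Among distal regions that control marked, Pax6 peaks of control cells lay more often on those with a lens peak. They overlapped 127 of 7077 distal regions in all lists (1.79%) and 7 of 860 lens regions lost in Pax6 KD (0.814%, 0.395 to 1.67). Without lens they overlapped 173 of 26082 in both αTN4 lists (0.663%) and 19 of 9459 of control alone (0.201%). The interval of the lost regions includes the 0.663%. Regions in all lists had a median width of 1430 bp, against 927 bp in both αTN4 lists without lens. Lost regions had 728.5 bp, against 329 bp in control alone. The median control percentiles were 64.1 against 42.6, and 19.6 against 14.8. The part of width and strength was not tested. Where control had no H3K4me2 peak, Pax6 peaks overlapped 23 of 25102 lens-only regions (0.0916%), 4 of 4182 of Pax6 KD alone (0.0956%) and 0 of 217 lens regions gained. At promoters they overlapped 57 of 14791 regions in all lists and 1 of 310 lost. The 7 distal lens regions with Pax6 that Pax6 KD lacked lay near Tuba1c, Ddr1, Fam129b, Macrod2, Slc6a17, Oas2 and Hipk2, and the promoter was that of Folr1, a folate receptor. All 8 were weak in control, with folds of 3.29 to 5.41, and read 3.69 to 10.0 in lens. Being few, they were named after their values were seen.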

How the data were processed

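H3K4me2 ChIP-seq of newborn lens, control αTN4 and Pax6 KD αTN4 cells was analysed from region lists, with 1 library per condition. Per its methods, the study aligned reads to mm9 with Bowtie and used MACS2 for H3K4me2, H3K4me3, Pax6 and Pol2 peaks and SICER for H3K4me1 islands, both at default settings, and filtered blacklisted regions. The authors deposited, for each MACS2 peak, a fold over background and the −log10 of its q-value. For each SICER island the authors deposited read counts, which were not tested here. Tool versions are not given in the sources used here, and sequencing depth is unknown. The fold ranks peaks only within a list. For the Pax6 and Pol2 libraries one label field names the other antibody, and titles were followed. RNA-seq libraries were not used here.

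Peaks overlapped when they shared 1 bp. Promoters were 2 kb around 51710 starts of protein-coding transcripts (22359 genes) in GENCODE vM1 on mm9, and distal regions were assigned to the nearest start within 100 kb. Overlapping peaks were merged into regions, each represented by its peak of highest fold. Sequence windows were centred on the Pax6 KD summit, or else the control or the lens summit. Shares have 95% Wilson intervals. Named regions were the 5 promoter and 5 distal ones of each class with the highest lowest percentile. Named genes were those of 22 lists and the 10 with the most net change in each direction. Some listed genes and 1 named region are not reported here and were left out of the lists. Of 275 listed entries, Sox1 had no match in the annotation. Members, lists and rules were chosen with earlier results of these data known. Merging and weighting were tested on simulated data. Python 3.11.15, pandas 2.3.3 and NumPy 2.4.6 were used. Alternatives changed list length, thresholds, overlap and promoter window. Leaving out folds below 2.5, equal covered length, q limits for changed regions, GC weighting and the GC range for the E-box were added after seeing the data.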

Additional observations from a re-analysis of the deposited data

How the results depend on the processing

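The sign of the net change toward or away from lens turned under some alternatives and is not fixed by these data. With each list cut to the same number of peaks (56214), lens peaks overlapped Pax6 KD in 42.0% and control in 44.0%, and 47.9% of Pax6 KD and 46.8% of control peaks overlapped lens. With −log10 q of at least 5 the same shares were 47.2%, 49.1%, 45.7% and 44.4%. With a fold of at least 5 they were 53.9%, 54.8%, 49.1% and 51.1%, with an overlap of at least 0.5 of the shorter peak 42.1%, 44.3%, 41.1% and 40.2%, and with peaks within 1 kb 48.8%, 50.8%, 47.2% and 45.4%. With lists cut to the same covered length, where the wider control peaks left 37107 of them and 52538 of Pax6 KD, they were 41.4%, 39.6%, 50.2% and 62.9%. Genes marked in lens were marked in Pax6 KD and control in 80.7% and 81.6% with equal numbers, 83.2% and 84.4% with promoters of 5 kb, and 80.4% and 79.3% with equal covered length. Nearer regions numbered 4713 with a fold of at least 5, and with equal covered length there were 1910 nearer and 10539 farther. The number of nearer minus farther regions turned negative with a fold of at least 5 (-782 in all, -77 at promoters, -705 distal), with equal covered length (-8629, -164, -8465) and at promoters of 1 kb (-13). The share of αTN4 peaks in lens, Pax6 KD minus control, turned to -1.96, -0.35 (promoters) and -1.46 (distal) percentage points with a fold of at least 5, to -12.7, -2.67 and -8.63 with equal covered length, and at distal sites to -0.17 with equal numbers and -0.33 with an overlap of 0.5 of the shorter peak. The share of lens peaks overlapped turned to 1.75, 1.12 (promoters) and 2.13 (distal), and that of lens genes to 1.06, with equal covered length. The lower lens share among gained than lost regions kept its direction in 25 of 25 alternatives, and the lower rank correlation of Pax6 KD with lens in 20 of 20, and the causes of the turns were not tested. No paired analysis was possible because each condition has 1 library, and no replicate could be left out.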

Other observations

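Hox genes, which set positional identity and are not lens genes, were marked in αTN4 more than in lens. Of 39, 33 had a promoter peak in Pax6 KD, 34 in control and 27 in lens, and 9 (23.1% of the list) were in Pax6 KD and not in lens, against 2.72% of all genes. At Hoxb9 the fold was 3.69 in lens, 23.9 in control and 26.0 in Pax6 KD, and at Hoxc5 3.69, 21.1 and 29.2, so that both ranked near the bottom in lens and near the top in the cells. Hoxc9 was the 1 Hox gene that control held and Pax6 KD lacked, at a control fold of 4.49.

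Genes of the AP-1 factors were marked in all lists in 8 of 9 cases, against 54.1% of all genes. Fos read 33.4 in lens, 19.2 in control and 16.0 in Pax6 KD, and Atf3 28.7, 13.9 and 31.2. Over all genes 66.8% had a lens peak and 54.3% a peak in both lens and Pax6 KD. Skeletal muscle genes had a lens peak in 5 of 5 cases and a Pax6 KD peak at Myf5 alone. Of 8 endothelial genes, 6 had a lens peak and 1, Tek, had a peak in lens and Pax6 KD. The lens list held 9 peaks on chromosome Y and the αTN4 lists 0.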
